A study of Mus musculus with 3 samples.

Results

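The 33 genes described here encode the enzymes and transporters of glycolysis, the pentose phosphate pathway and the tricarboxylic acid (TCA) cycle, with the links between them. They were chosen by symbol from a fixed list, and all 33 were found once each among the 31053 genes of the deposited tables. They were grouped into 9 pathway steps. The cells came from skin wounds made on inbred C57BL6/J males, were enriched for monocytes and macrophages, and were profiled by 10x Chromium single-cell RNA-seq 3, 6 and 10 days after injury. Each day is 1 library made from cells of 2 pooled mice, so day and library cannot be told apart and single mice cannot be traced. The labels name no treatment, engineered allele or age, and no unwounded skin was analysed here.

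Glycolysis splits glucose into pyruvate in the cytosol, and pyruvate is either reduced to lactate and exported or oxidised in the mitochondrial TCA cycle. The pentose phosphate pathway branches off after the first step and yields NADPH and the sugar of nucleotides. Inflammatory macrophages are known for high glycolysis and for diverting a TCA intermediate to itaconate through Acod1.

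Cells were compared in 3 sets, each defined by at least 3 unique molecular identifiers (UMIs, one per captured transcript) of 1 marker and fewer than 3 of the other markers. Ly6c2 marks inflammatory monocytes, C1qa, a complement subunit, marks macrophages, and Cd209a marks monocyte-derived or dermal dendritic cells. The Ly6c2 set held 315, 19 and 68 cells on days 3, 6 and 10. The C1qa set held 77, 247 and 605 cells, and the Cd209a set held 103, 98 and 155. The Ly6c2 set of day 6 is thus small, with 237165 UMIs in all, and its values are the least precise. Summed monocyte markers reached 7560 to 10684 CPM (UMIs scaled to a fixed total per sum) in the Ly6c2 set. Summed macrophage markers reached 15433 to 27077 CPM in the C1qa set. Summed dendritic cell markers reached 2571 to 2845 CPM in the Cd209a set, against at most 173 CPM in the other sets. Macrophage markers also reached 4025 CPM in the Ly6c2 set on day 10. Monocyte markers reached 4339 CPM in the C1qa set and 2687 CPM in the Cd209a set on day 3. Each of these lists holds the marker that defined its set, so the sums are partly fixed by the selection. A pair of sums also held other cells' transcripts: erythroid markers stood at 4436 CPM in the C1qa set of day 6 and natural killer cell markers at 219 CPM in the Ly6c2 set of day 6. Their part in the results was not tested.

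The 3 libraries held 9273960 to 13972817 UMIs. After the filters 900, 598 and 1362 cells remained on days 3, 6 and 10, of which 36.8% to 38.3% fell in no set. Libraries of days 6 and 10 shared 2 barcodes, and no other pair shared any. Median UMIs per cell were 10350 to 11646 in the Ly6c2 set, 8027 to 10657 in the C1qa set and 14526 to 18266 in the Cd209a set. All levels are CPM of the summed UMIs of a set. The chemistry counts transcript ends, so 1 UMI stands for 1 molecule whatever the gene's length. A lower level can mean fewer transcripts per cell or fewer cells with the transcript.

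Members made up more of the RNA of monocytes and macrophages than of Cd209a cells. Summed over all 33 genes, the Ly6c2 set had 9830, 8863 and 8023 CPM on days 3, 6 and 10, the C1qa set 9439, 8445 and 11784 CPM, and the Cd209a set 6898, 5159 and 5153 CPM. The Cd209a set was lowest on each day, and its range did not overlap those of the other sets. The C1qa set was highest on day 10, and the Ly6c2 set was highest on days 3 and 6. The 5 lower glycolysis genes gave the largest part of this sum, as with 5619 CPM in the Ly6c2 set of day 3 and 6969 CPM in the C1qa set of day 10. Not every step had this order, and the TCA cycle step was highest in the Cd209a set on each day.

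**Figure D1:**
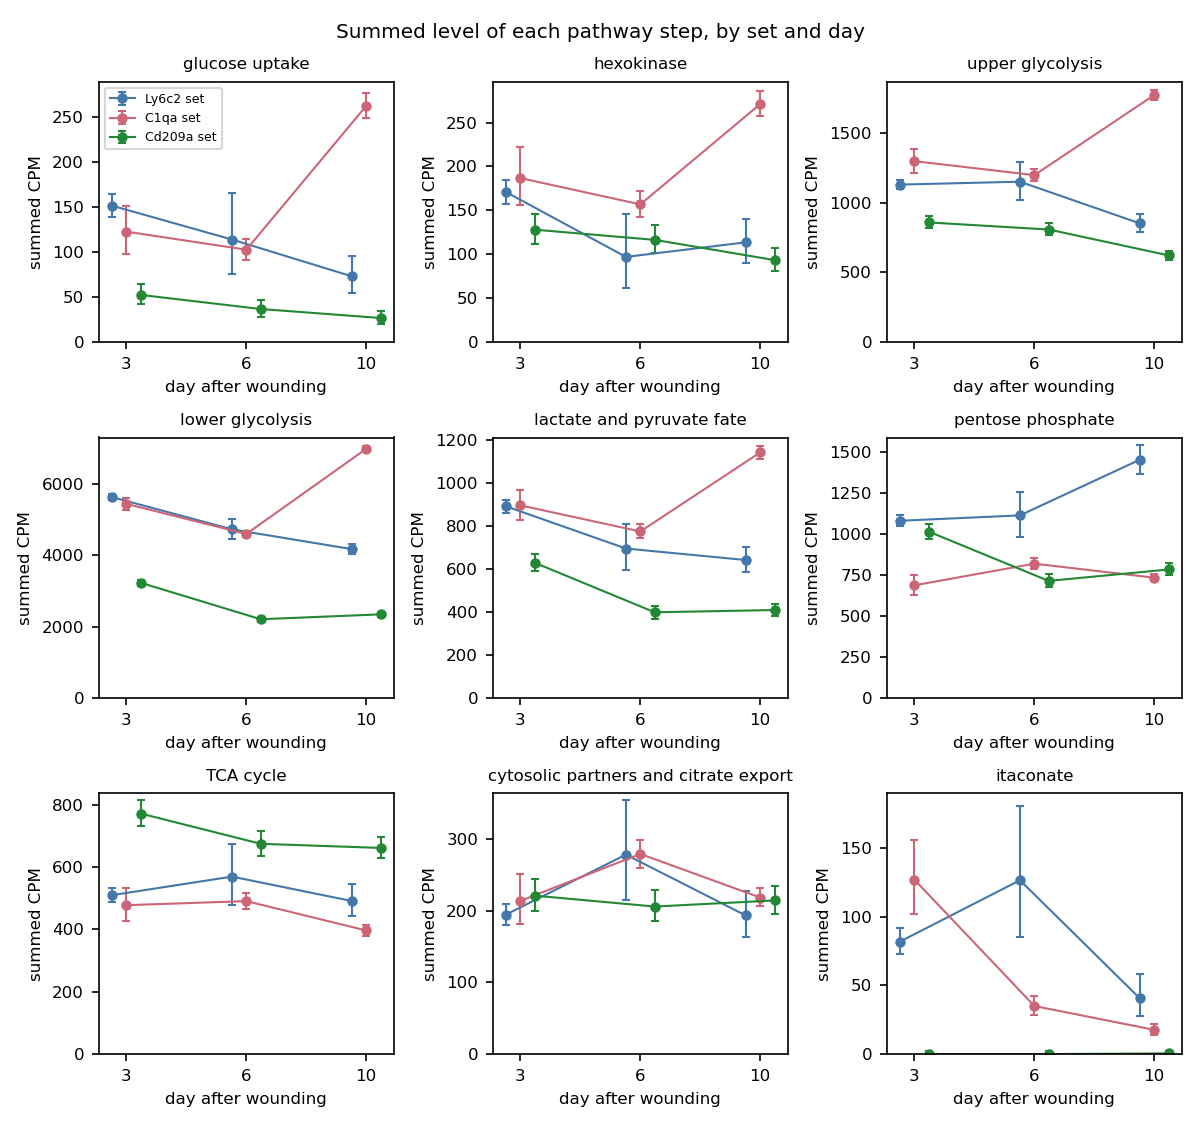
Summed CPM of each of 9 pathway steps (vertical axes) on days 3, 6 and 10 after wounding (horizontal axes) in the Ly6c2, C1qa and Cd209a sets; points are 1 library and bars are exact 95% Poisson intervals, which cover counting error only. Lower glycolysis of the C1qa set reaches 6969 CPM on day 10 while the Cd209a set stays at or under 3223 CPM. The TCA cycle step of the Cd209a set, 661 to 771 CPM, lies above both other sets on every day. Fh1 alone gave 362, 365 and 421 of the 1326, 1176 and 1459 UMIs of that step there, in day order. In the Ly6c2 set it gave 162, 9 and 32 of 1811, 135 and 363. In the C1qa set it gave 19, 87 and 121 of 335, 1402 and 2067. The step was not compared without Fh1.

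The differences between sets were tested in edgeR's quasi-likelihood model on the 9 sums, with the library as a block, over all genes with at least 20 UMIs. An adjusted p (Benjamini-Hochberg over all genes tested) under 0.05 was called. With 1 sum per set and library, p measures how a set difference varies over the 3 libraries, which are also the 3 days.

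The Cd209a set differed most from the macrophages. Against the C1qa set, 15 of 33 members were lower, against 17.1% of all genes, and 7 were higher, against 15.1% of all genes. The median log2 fold change of the members was -0.49, and that of all genes tested -0.03. Apart from Acod1, Idh1 and Pgd, the lower genes belonged to glucose uptake, glycolysis and the handling of its pyruvate, while 4 of the 7 TCA cycle genes were higher and none was lower.

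The 1 transcript of the glucose uptake step was lower in the Cd209a set, while uptake itself was not measured. Slc2a6, a hexose transporter outside the members, was higher there, as given below. Slc2a1, the glucose transporter GLUT1 (chromosome 4, 119108711 to 119137983 of GRCm38), had 123, 103 and 262 CPM in the C1qa set and 52.4, 36.7 and 26.7 CPM in the Cd209a set on days 3, 6 and 10. The values did not overlap. Its log2 fold change was -1.96 ± 0.36 (SE, n = 3 libraries, adjusted p = 0.000697 by edgeR).

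Among hexokinases, which trap glucose by phosphorylation, Hk3 was the one lower in the Cd209a set. Hk3 stood at 38.5, 39.9 and 29.3 CPM in the C1qa set and at 4.65, 1.72 and 0.906 CPM in the Cd209a set, the last 3 resting on 8, 3 and 2 UMIs. Its log2 fold change was -3.78 ± 0.38 (adjusted p = 3.71e-06, edgeR). Hk2 (log2 fold change -0.48 ± 0.28, adjusted p = 0.207) and Hk1 (-0.48 ± 0.27, adjusted p = 0.196) were not called. Hk3 thus supplied 3.64%, 1.48% and 0.971% of the hexokinase UMIs of the Cd209a set, against 20.6%, 25.4% and 10.8% in the C1qa set and 17.1%, 26.1% and 27.4% in the Ly6c2 set. The exact 95% intervals of the Cd209a shares reach at most 7.04%. Those of the Ly6c2 shares are wide on day 6, at 10.2% to 48.4% on 23 hexokinase UMIs, and on day 10, at 18.2% to 38.2% on 84.

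The phosphofructokinase subunits went opposite ways. Pfkp, the platelet-type subunit, was higher in the Cd209a set, at 234, 244 and 124 CPM against 110, 69.6 and 83.8 CPM in the C1qa set (log2 fold change 1.30 ± 0.22, adjusted p = 0.000368, edgeR). Pfkl, the liver-type subunit, was lower, at 35.5, 24.7 and 24.9 CPM against 103, 71.4 and 120 CPM (-1.66 ± 0.22, adjusted p = 4.62e-05). Pfkp accordingly made up 86.8%, 90.8% and 83.3% of the UMIs of these 2 subunits in the Cd209a set, 51.7%, 49.4% and 41.2% in the C1qa set and 62.9%, 69.2% and 62.9% in the Ly6c2 set. Pfkfb3, which makes the allosteric activator of phosphofructokinase, was lower in the Cd209a set, at 23.3, 32.1 and 26.7 CPM against 75.5, 63.3 and 109 CPM (-1.44 ± 0.25, adjusted p = 0.000425).

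In lower glycolysis 4 of 5 genes were lower in the Cd209a set. Pgk1, which makes the first ATP of the pathway, had 214, 130 and 121 CPM there and 597, 630 and 952 CPM in the C1qa set. The sets did not overlap, and its log2 fold change was -2.11 ± 0.25 (adjusted p = 1.84e-05, edgeR). Gapdh, the abundant dehydrogenase of the middle of the pathway, had 1577, 1224 and 1304 CPM in the Cd209a set and 2537, 1996.5 and 3078 CPM in the C1qa set (-0.74 ± 0.17, adjusted p = 0.00378). Pkm, pyruvate kinase, was also lower (-1.42 ± 0.20), as was Pgam1 (-1.10 ± 0.25). Tpi1, counted in the upper glycolysis step, was lower too (-1.66 ± 0.22). Eno1 was not called (-0.49 ± 0.18, adjusted p = 0.0553), and its UMIs are uncertain because the annotation holds a near-identical copy, Eno1b. Without the day 6 library Pgam1 was no longer called (log2 fold change -0.95, adjusted p = 0.0605).

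The 3 members of the pyruvate fate step were lower in Cd209a cells too, while other genes of pyruvate handling, given below, were mostly not called. Slc16a3, the lactate exporter MCT4, had 79.1, 34.4 and 30.8 CPM in the Cd209a set and 241, 123 and 265 CPM in the C1qa set (-2.04 ± 0.26, adjusted p = 3.5e-05, edgeR). Pdk1, the kinase that switches off pyruvate dehydrogenase, had 8.14, 9.75 and 11.3 CPM against 22.8, 39.5 and 67.7 CPM (-2.04 ± 0.33, adjusted p = 0.000279). Ldha, lactate dehydrogenase A, had 542, 355 and 368 CPM against 633, 612 and 810 CPM (-0.58 ± 0.19, adjusted p = 0.0297). The Ldha call was lost without the day 6 library (adjusted p = 0.156) and without the day 10 library (adjusted p = 0.228).

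The pentose phosphate genes were split. Taldo1, transaldolase of the non-oxidative branch, was higher in the Cd209a set, at 596, 373 and 431 CPM against 289, 343 and 312 CPM in the C1qa set (0.69 ± 0.21, adjusted p = 0.0187, edgeR). That call was lost without the day 3 library (log2 fold change 0.44, adjusted p = 0.185). Pgd, the second NADPH-producing dehydrogenase, was lower (-1.44 ± 0.22, adjusted p = 0.000193). G6pdx, the dehydrogenase that opens the pathway, was not called, with 29.1, 36.7 and 35.8 CPM in the Cd209a set and 28.5, 28.3 and 29.2 CPM in the C1qa set. Tkt was not called either.

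Fh1 had the highest log2 fold change of the 33 members in this comparison. Fh1 is fumarase of the TCA cycle and lies at chromosome 1, 175600374 to 175625635. It had 211, 209 and 191 CPM in the Cd209a set, 27.1, 30.4 and 23.2 CPM in the C1qa set and 45.6, 37.9 and 43.3 CPM in the Ly6c2 set. The lowest Cd209a value was far above the highest value of the other sets. The log2 fold change was 3.07 ± 0.19 against the C1qa set (adjusted p = 4.59e-08, edgeR), and at least 1 UMI of Fh1 was seen in 84.5%, 85.7% and 76.8% of Cd209a cells but in 15.6%, 25.9% and 16.9% of C1qa cells, which have fewer UMIs per cell.

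Of the other TCA genes, 3 were called. Mdh2, mitochondrial malate dehydrogenase, was higher in the Cd209a set than in the C1qa set (0.68 ± 0.17, adjusted p = 0.00676, edgeR), as were Idh3a, a subunit of the NAD-dependent isocitrate dehydrogenase (0.59 ± 0.22, adjusted p = 0.0498), and Cs, citrate synthase (0.54 ± 0.18, adjusted p = 0.0362). Idh3a had 32.6, 28.7 and 28.1 CPM against 28.5, 21.7 and 18.0 CPM. The calls of Idh3a and Cs were lost when any 1 of the 3 libraries was left out, with adjusted p of 0.0688 to 0.311 and 0.0911 to 0.182. Sdha, the catalytic subunit of succinate dehydrogenase, was not called, with 77.4, 72.3 and 64.8 CPM against 62.7, 87.8 and 65.8 CPM. Sdhb and Ogdh were not called.

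The cytosolic partners of the cycle diverged. Mdh1, cytosolic malate dehydrogenase, was higher in the Cd209a set (0.98 ± 0.17, adjusted p = 0.00053, edgeR), with 143, 123 and 141 CPM against 71.3, 84.3 and 72.5 CPM. Idh1, the NADP-dependent cytosolic isocitrate dehydrogenase, was lower (-2.13 ± 0.25, adjusted p = 1.95e-05), with 16.3, 13.8 and 16.8 CPM against 45.6, 109 and 78.1 CPM. Acly, which cleaves exported citrate to acetyl-CoA, had 45.4, 54.5 and 40.8 CPM against 72.7, 57.7 and 42.0 CPM and was not called (adjusted p = 0.853). Slc25a1, the citrate carrier, had 16.9, 14.9 and 15.9 CPM against 24.2, 28.0 and 25.9 CPM and was not called (adjusted p = 0.16).

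Acod1, which makes itaconate (chromosome 14, 103046977 to 103056573), was at or near 0 in Cd209a cells. Its UMIs numbered 0, 0 and 1 in the Cd209a set on days 3, 6 and 10, against 89, 100 and 92 in the C1qa set and 291, 30 and 30 in the Ly6c2 set. Its level in the C1qa set was at least 72.7-fold and at least 20.3-fold higher on days 3 and 6, taking 3 UMIs per library as the floor. On day 10 the C1qa set exceeded the Cd209a set 38.9-fold, with an exact 95% interval of 6.82 to 1554. The adjusted p was 6.2e-06 against the C1qa set and 5.09e-06 against the Ly6c2 set (edgeR).

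**Figure D2:**
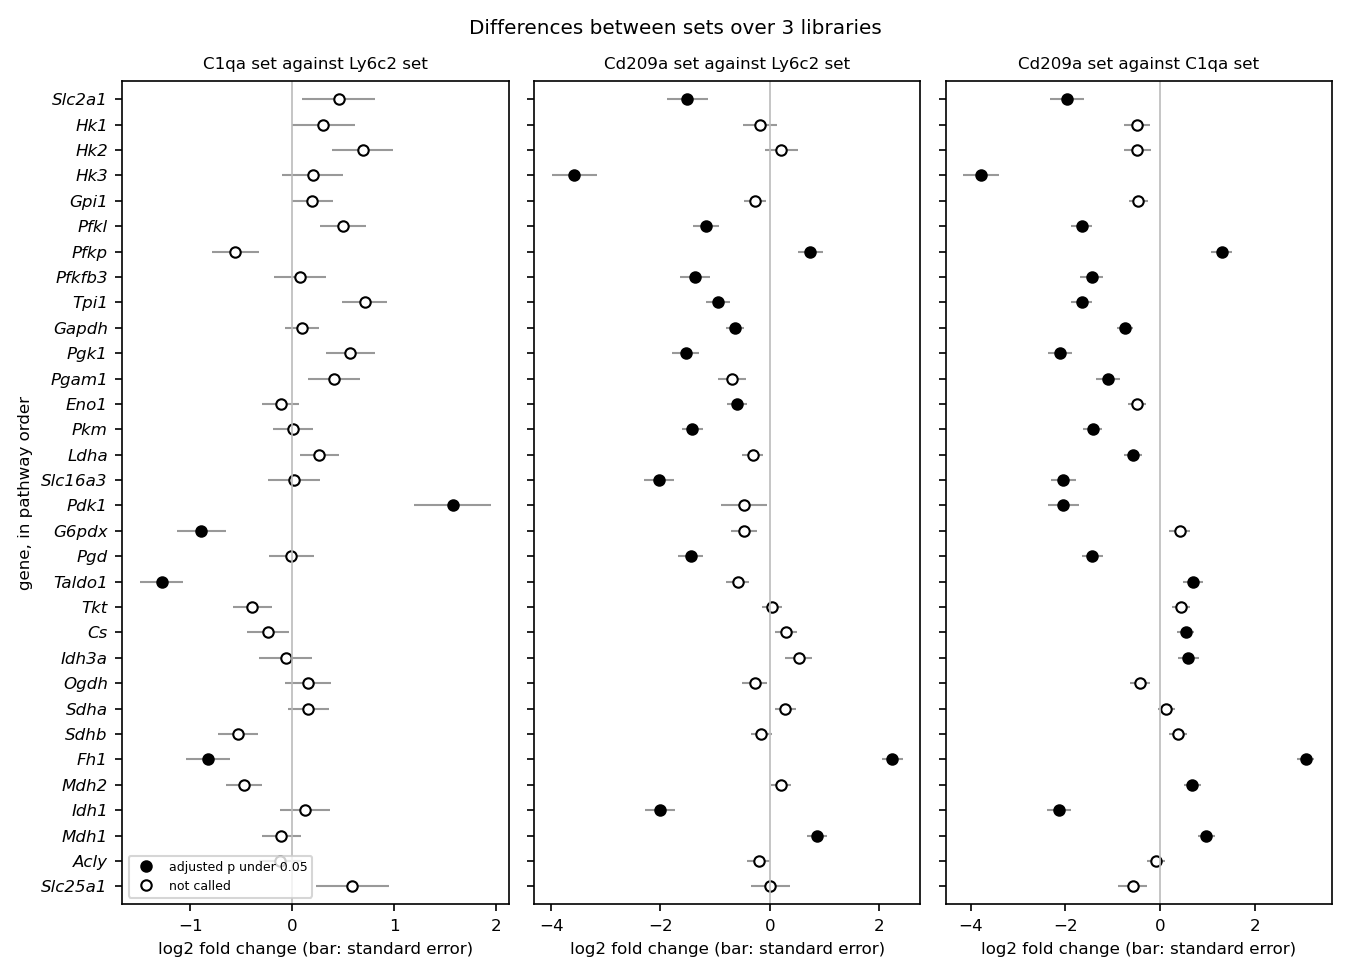
Log2 fold change of 32 members (Acod1 is left out because the Cd209a set held 0 or 1 UMI) in the 3 comparisons of sets, in pathway order from glucose uptake at the top; points are edgeR estimates over 3 libraries, bars are standard errors, filled points have an adjusted p under 0.05. Fh1 lies at 2.24 and 3.07 in the 2 comparisons of the Cd209a set, and most glycolytic genes lie left of 0 there.

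Against the Ly6c2 set, the lower members were again mostly of glycolysis, but fewer TCA cycle genes were higher. The Cd209a set had 1 of 7 TCA cycle genes higher, 3 of 5 upper and 4 of 5 lower glycolysis genes lower, and 1 of 3 genes of pyruvate fate lower. Taldo1, higher than in the C1qa set, had a log2 fold change of -0.58 ± 0.21 here and was not called (adjusted p = 0.0714, edgeR). Whether the 2 comparisons differ was not tested. In all, 13 members were lower, against 9.47% of all genes, and 3 were higher, against 7.37% of all genes. The member median was -0.47, and that of all genes 0.02. The 2 comparisons share the Cd209a sums, so they are not independent.

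Of the genes lower than in monocytes, Acod1 aside, Hk3 had the largest fold (-3.58 ± 0.41, adjusted p = 3.02e-05, edgeR), from 29.3, 25.3 and 31.1 CPM in the Ly6c2 set. Its UMIs numbered 8, 3 and 2 in the Cd209a set and 104, 6 and 23 in the Ly6c2 set, so the size of this fold is imprecise. Slc16a3 followed (-2.03 ± 0.27, adjusted p = 0.000107), from 258, 173 and 160 CPM. Idh1 was lower (-2.00 ± 0.27, adjusted p = 0.00012), from 45.0, 75.9 and 77.1 CPM. Pgk1 was lower (-1.54 ± 0.25, adjusted p = 0.000562), from 500, 519 and 373 CPM. Slc2a1 was lower (-1.50 ± 0.37, adjusted p = 0.0124), from 151, 114 and 73.0 CPM. None of these 5 overlapped between the 2 sets, but they are called members with large folds. The share of all genes without overlap was not computed. Gpi1, Pgam1 and Taldo1, which were not called, did not overlap either, while Pfkp, which was called higher, did.

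Pgd, Pkm, Pfkfb3, Pfkl, Tpi1, Gapdh and Eno1 were lower by log2 fold changes of -1.44 to -0.60. Ldha, at 619, 514 and 475 CPM in the Ly6c2 set, was not called (-0.31 ± 0.19, adjusted p = 0.32), nor was Pdk1, at 14.9, 8.43 and 8.11 CPM (-0.47 ± 0.42, adjusted p = 0.533). The higher genes were Fh1 (2.24 ± 0.19, adjusted p = 2.22e-06), Mdh1 (0.87 ± 0.18, adjusted p = 0.00452) and Pfkp (0.74 ± 0.23, adjusted p = 0.0363). Calls lost when 1 library was left out were Pfkp without day 3 or day 6 (adjusted p = 0.2 and 0.101), Mdh1 without day 3 (0.0577), Pfkfb3 without day 3 (0.0656), Tpi1 without day 6 (0.0592), Gapdh without day 3 or day 6 (0.0918 and 0.125) and Eno1 without any 1 library (0.078 to 0.138).

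Macrophages and monocytes differed in few members. Against the Ly6c2 set, 1 member was higher in the C1qa set, against 4.68% of all genes, and 3 were lower, against 5.17% of all genes. The member median was 0.08 and that of all genes 0.06. The 33 members are too few to read these counts as different from the background.

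Taldo1 was the member that separated these sets most firmly. It had 656, 603 and 901 CPM in the Ly6c2 set and 289, 343 and 312 CPM in the C1qa set, with no overlap. Its log2 fold change was -1.28 ± 0.21 (adjusted p = 0.0018, edgeR), and it was called whichever library was left out (adjusted p = 0.00227 to 0.0265). In 48 cells of day 3 with at least 3 UMIs of both Ly6c2 and C1qa, Taldo1 stood at 362 CPM (exact 95% Poisson interval 313 to 416).

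The other 3 calls were each lost when at least 1 library was left out. Pdk1 was higher in the C1qa set (1.57 ± 0.38, adjusted p = 0.0178, edgeR), but not called without day 6 (adjusted p = 0.0745) or day 10 (log2 fold change 0.94, adjusted p = 0.347). Without day 3 its log2 fold change was 2.71. The Ly6c2 sums of Pdk1 held 53, 2 and 6 UMIs. G6pdx was lower (-0.89 ± 0.24, adjusted p = 0.0307), with 41.1, 33.7 and 63.6 CPM in the Ly6c2 set, and Fh1 was lower (-0.83 ± 0.22, adjusted p = 0.0262). Both calls were lost whichever library was left out, with log2 fold changes of -1.02 to -0.63 and adjusted p of 0.0596 to 0.426 for G6pdx, and -0.99 to -0.70 and 0.0593 to 0.256 for Fh1.

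The other genes of these pathways, 73 genes outside the 33, were tested in the same fit. Of the 63 with enough UMIs, 16 were higher and 10 lower in the Cd209a set against the C1qa set (15.1% and 17.1% of all genes), 7 higher and 4 lower against the Ly6c2 set (7.37% and 9.47%), and 1 higher and 2 lower in the C1qa set against the Ly6c2 set (4.68% and 5.17%). By pathway, of 15 glycolysis genes measured, 3 were higher and 3 lower in the Cd209a set against the C1qa set (median log2 fold change -0.48), and 1 was higher and 1 lower against the Ly6c2 set (median 0.26). Of 15 lactate and pyruvate genes, 1 was higher and 4 lower against the C1qa set (median 0.04). Against the Ly6c2 set 1 was higher and 2 lower (median -0.18). Of 8 pentose phosphate genes, 3 were higher and 1 lower in each comparison (medians 0.78 and 1.01). Of 25 TCA and citrate genes, 9 were higher and 2 lower against the C1qa set, and 2 were higher and 0 lower against the Ly6c2 set. Fasn, fatty acid synthase, was higher in the Cd209a set than in the C1qa set (2.84 ± 0.50, adjusted p = 0.000508, edgeR), with 13.4, 7.45 and 15.0 CPM against 1.43, 1.05 and 2.69 CPM. Slc2a6, a hexose transporter, was higher too (2.05 ± 0.37, adjusted p = 0.000618), at 44.2, 20.6 and 24.9 CPM against 14.3, 9.80 and 3.26 CPM.

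Ldhb, the B subunit of lactate dehydrogenase, was called lower in the Cd209a set in both comparisons (adjusted p = 4.81e-05 and 1.89e-05, edgeR). Its UMIs there numbered 1, 1 and 0, against 6, 39 and 72 in the C1qa set and 36, 7 and 22 in the Ly6c2 set. Eno2, neuronal enolase, was called lower against the C1qa set (adjusted p = 0.0296), but on 1, 0 and 0 UMIs against 1, 12 and 9. Slc16a1, the lactate and pyruvate transporter MCT1, was lower than in the Ly6c2 set (-2.69 ± 0.61, adjusted p = 0.00672), on 4, 4 and 2 UMIs against 39, 4 and 7. Prps2, which makes the activated ribose of nucleotides, was higher than in the Ly6c2 set (2.10 ± 0.42, adjusted p = 0.00287), as was Fasn (1.65 ± 0.54, adjusted p = 0.0477). Between macrophages and monocytes, Pgm2, a phosphoglucomutase, was higher in the C1qa set (1.44 ± 0.42, adjusted p = 0.0448), and Slc2a6 (-1.67 ± 0.43, adjusted p = 0.025) and Mpc1, a subunit of the mitochondrial pyruvate carrier (-0.71 ± 0.21, adjusted p = 0.043), were lower.

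Days were compared within a set without a test, since each day is 1 library. A ratio of CPM of at least 1.5-fold is called higher or lower, and its exact 95% interval covers counting error only, not variation between mice. Genes needed at least 20 UMIs over the 2 sums.

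In macrophages, the summed levels of glucose uptake, hexokinases, upper and lower glycolysis and pyruvate fate were each highest on day 10. The C1qa set of day 3 held 4339 CPM of summed monocyte markers, against 680 and 695 CPM on days 6 and 10, with UMIs of 8 of 8 markers on each day, and the part of this in the comparisons with day 3 was not tested. In the C1qa set 8 of 33 members were higher on day 10 than on day 3, against 20.7% of all genes, and 3 were lower, against 14.5% of all genes, so the count of higher members is near the background. Against day 6, 11 were higher, against 7.34% of all genes, and 1 was lower, against 12.8% of all genes. On day 6 against day 3, 2 were higher, against 26.4% of all genes, and 3 were lower, against 10.8% of all genes.

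Lower glycolysis summed to 5429, 4589 and 6969 CPM on days 3, 6 and 10 in the C1qa set, and day 10 exceeded day 6 by 1.52-fold (95% interval 1.49 to 1.55). Slc2a1 showed the same order. It was 2.14-fold higher on day 10 than on day 3 (1.72 to 2.69) and 2.56-fold higher than on day 6 (2.25 to 2.91). Pdk1 was higher on each later day, 2.97-fold on day 10 against day 3 (1.80 to 5.25), from 16, 113 and 353 UMIs.

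Hk2, the inducible hexokinase, had 117, 91.3 and 192 CPM, and Hk1 31.4, 25.5 and 49.3 CPM. Their ratios of day 10 to day 3 were 1.65 (1.31 to 2.09) and 1.57 (1.02 to 2.55). Pgam1, phosphoglycerate mutase, was 1.86-fold higher on day 10 than on day 3 (1.64 to 2.12). Slc16a3 was lowest on day 6 and differed little between days 3 and 10, with a ratio of 1.10 (0.937 to 1.30), while day 10 exceeded day 6 by 2.15-fold (1.91 to 2.43). Gapdh and Ldha were 1.21-fold (1.16 to 1.27) and 1.28-fold (1.16 to 1.41) higher on day 10 than on day 3, under the 1.5-fold limit, and Pfkfb3 was 1.44-fold higher (1.09 to 1.95).

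The TCA cycle step did not share this order. It had 478, 491 and 396 CPM in the C1qa set, with a ratio of day 10 to day 3 of 0.830 (0.739 to 0.935). Of its 7 genes, 6 stayed within 1.5-fold between these days, 1 was lower, against 14.5% of all genes, and 0 were higher, against 20.7%. Mdh2 had a ratio of 0.746 (0.599 to 0.937). Acly, counted with citrate export and not with the cycle, was 1.73-fold lower on day 10 (1.25 to 2.36). Idh3a was 1.58-fold lower, with an interval of 0.920 to 2.58 that includes no difference. Sdha and Slc25a1 had ratios of 1.05 (0.765 to 1.47) and 1.07 (0.643 to 1.89), and G6pdx 1.02 (0.639 to 1.72). Idh1 was highest on day 6, 2.39-fold above day 3 (1.66 to 3.56), and on day 10 it was 1.40-fold below day 6 (1.20 to 1.63). Cs was 1.45-fold lower on day 10 than on day 6 (1.19 to 1.76). On day 6 against day 3, Sdha had a ratio of 1.40 (1.01 to 1.98). Of genes outside the cycle, Pgam1 had a ratio of 1.46 (1.28 to 1.68) between those days, and Pfkp was 1.58-fold lower (1.20 to 2.06).

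Acod1 was lower on each later day in macrophages, at 127, 35.0 and 17.6 CPM. It was 7.19-fold lower on day 10 than on day 3 (5.31 to 9.73). Few cells carried it: on day 3, 15 of 77 C1qa cells had a UMI, the 10 highest cells held 93.3% of its UMIs, and 1 cell held 29 of 89. Without the cell with most of its UMIs in each library the ratio of day 10 to day 3 was 0.183, in place of 0.139. Over all alternatives it was 3.61-fold to 9.58-fold lower. The monocyte markers of the C1qa set given above were likewise highest on day 3, and their part in this result was not tested.

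**Figure D3:**
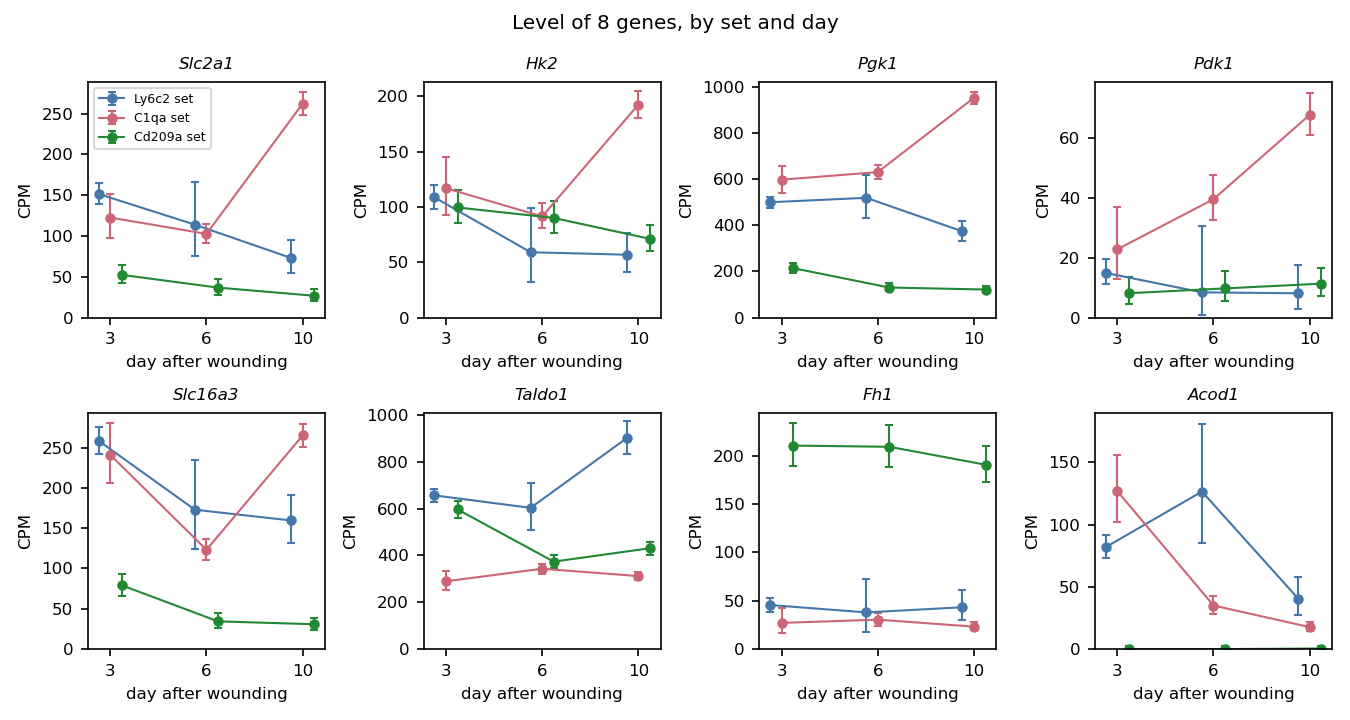
CPM of 8 members (vertical axes) on days 3, 6 and 10 after wounding (horizontal axes) in the 3 sets; points are 1 library and bars exact 95% Poisson intervals for counting error. Slc2a1 in the C1qa set reaches 262 CPM on day 10, Fh1 stays between 191 and 211 CPM in the Cd209a set, and Acod1 of the C1qa set runs from 127 to 17.6 CPM.

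Cells of the C1qa set of day 10 were also compared with each other. The 605 cells were ranked by the share of their UMIs from the 5 lower glycolysis genes, and the 151 highest and the 151 lowest cells were compared on other members, as a description. Slc2a1 was 6.71-fold higher in the highest cells, Slc16a3 5.34-fold, Ldha 3.69-fold and Tpi1 3.43-fold. Pgd stood at 182 CPM in both, Cs had a ratio of 0.935, and G6pdx (0.419) and Idh3a (0.400) stood lower, the last on 46 UMIs. Median UMIs per cell were 9675 in the highest cells and 6247 in the lowest, and the part of depth in these ratios was not tested. The split was not particular to day 10. In the C1qa set of day 6 the same ranking gave 8.86-fold for Slc2a1, 7.88-fold for Slc16a3, 6.46-fold for Ldha and 4.68-fold for Tpi1. Ratios there were 1.69 for Pgd, 2.17 for Cs, 0.973 for G6pdx and 1.05 for Idh3a. The ratio over all genes was not computed.

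A group of 5 members was at least 1.5-fold higher on day 10 than on both earlier days in the C1qa set: Slc2a1, Hk1, Hk2, Pgk1 and Pdk1. The group was chosen by these values. Of all genes in this set, 20.7% were higher on day 10 against day 3 and 7.34% against day 6. The share of all genes past both limits was not computed, so the size of the group has no background beside it. Of the 5, Slc2a1 and Hk2 were past the 1.5-fold limit under all 10 alternatives that recompute the ratio. With each cell weighted equally, the ratios of day 10 to day 6 were 1.43 for Pgk1 and 1.36 for Pdk1, and with a marker limit of 5 UMIs, a mitochondrial limit of 20% or no cell filter the ratio of day 10 to day 3 for Hk1 was under the limit, at 1.23 in the lowest case.

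The letters ACGTG and GCGTG are the core bound by hypoxia-inducible factor (HIF), for which many glycolytic genes are known targets. Ldha, Gapdh, Slc16a3 and Pfkfb3, which are among those targets too, stayed within 1.5-fold between days 3 and 10 in the C1qa set, as given above. On day 10 against day 6, Slc16a3, Gapdh and Pfkfb3 were past 1.5-fold higher, and Ldha was not. Over the alternatives that recompute them, these ratios were 2.05 to 2.38 for Slc16a3, 1.53 to 1.69 for Gapdh and 1.59 to 1.83 for Pfkfb3. The part of HIF in any of these values was not tested. Upstream sequences (RefSeq, GRCm38.p6) of the 5 are shown because these members were higher together; capitals mark ACGTG or GCGTG on either strand, so CACGT and CACGC are the reverse-strand forms. Each run is written on the gene's own strand, 5′ to 3′, and ends before the first exon base annotated within its window. The run of Hk1 lies before an internal start of the gene. Hk1 and Pdk1 each have a second window, not printed, with 0 matches, and that of Hk1 (chromosome 10, 62379909 to 62380158) is the one at the outer end of the gene.

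Slc2a1 (chr4:119108495-119108710, plus strand): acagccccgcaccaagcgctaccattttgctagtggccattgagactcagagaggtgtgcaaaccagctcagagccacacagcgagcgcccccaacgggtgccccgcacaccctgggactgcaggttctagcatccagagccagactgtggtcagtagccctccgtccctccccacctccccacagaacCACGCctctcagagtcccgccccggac
Hk1 (chr10:62340543-62340671, minus strand): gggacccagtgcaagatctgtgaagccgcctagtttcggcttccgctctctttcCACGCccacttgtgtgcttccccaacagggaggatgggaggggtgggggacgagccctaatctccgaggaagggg
Hk2 (chr6:82774455-82774704, minus strand): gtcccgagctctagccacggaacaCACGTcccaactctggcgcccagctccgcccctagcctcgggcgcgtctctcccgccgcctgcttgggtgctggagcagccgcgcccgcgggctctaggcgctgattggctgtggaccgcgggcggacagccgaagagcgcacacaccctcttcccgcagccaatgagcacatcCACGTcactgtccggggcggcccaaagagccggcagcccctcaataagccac
Pgk1 (chrX:106186850-106187099, plus strand): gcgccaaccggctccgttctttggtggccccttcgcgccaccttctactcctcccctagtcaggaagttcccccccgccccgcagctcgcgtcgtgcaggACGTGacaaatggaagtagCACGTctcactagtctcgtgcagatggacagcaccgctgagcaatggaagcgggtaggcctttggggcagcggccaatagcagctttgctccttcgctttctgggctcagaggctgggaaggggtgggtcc
Pdk1 (chr2:71872974-71873223, plus strand): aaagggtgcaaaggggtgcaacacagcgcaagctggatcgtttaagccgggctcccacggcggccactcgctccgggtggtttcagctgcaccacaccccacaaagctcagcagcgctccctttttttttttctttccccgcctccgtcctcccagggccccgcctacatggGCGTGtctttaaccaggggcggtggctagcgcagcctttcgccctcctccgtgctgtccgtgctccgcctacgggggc

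These letters are common. In the 250 bases upstream of a start, 38.6% of the 32851 windows of the RefSeq table held a match, and 41.5% of 27025 genes had one in any of their windows. Counting any of a gene's windows, the 5 members all had one, as did 24 of the other 27 members with a window, so the match does not set the 5 apart from the other members. ACGTG also lies within CACGTG, the letters bound by MYC and related factors, which 6.02% of windows held. A match is a description of the letters, not a binding site.

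In monocytes 8 members (24.2%) were lower on day 10 than on day 3 in the Ly6c2 set, against 18.7% of all genes. This count is near the background. It was 4 with a marker limit of 1 UMI and overlapping sets, and 15 with each cell weighted equally. Higher members numbered 2, against 15.5% of all genes. Of the 17 members from glucose uptake to lactate export, 6 were lower, against the same 18.7%, and 0 were higher, with 11 inside the 1.5-fold limit. The member median was -0.42 on the log2 scale, and that of all genes -0.01. Slc2a1 was 2.07-fold lower (1.57 to 2.80) and Hk2 1.91-fold lower (1.39 to 2.70), from 109, 59.0 and 56.8 CPM. With a marker limit of 1 UMI and overlapping sets, these ratios were 0.946 and 0.902. Acod1 was 2.02-fold lower (1.38 to 3.05), from 81.9, 126 and 40.6 CPM. On day 6, 5 of the 19 cells held all 30 of its UMIs.

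The lower glycolysis step of the Ly6c2 set had 5619, 4718 and 4165 CPM. Pentose phosphate genes had the other order, with 1080, 1113 and 1452 CPM. Idh1 was 1.71-fold higher on day 10 than on day 3 (1.24 to 2.33), G6pdx 1.55-fold (1.09 to 2.16) and Taldo1 had 656, 603 and 901 CPM. Slc25a1, the citrate carrier, had 16.0, 37.9 and 6.76 CPM, the last on 5 UMIs.

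In Cd209a cells 7 of 31 measured members were lower on day 10 than on day 3, against 10.2% of all genes, and 0 were higher, against 11.7% of all genes. The member median was -0.26 on the log2 scale, and that of all genes 0.02. Hk3 and Acod1 had too few UMIs to be measured. Summed monocyte markers of the Cd209a set, with UMIs of 8 of 8 markers, were also highest on day 3, at 2687, 1754 and 1601 CPM on days 3, 6 and 10, while its dendritic cell markers stood at 2845, 2571 and 2845 CPM, and the part of this in the result was not tested. Slc16a3 was 2.57-fold lower (1.91 to 3.49), Slc2a1 1.96-fold (1.39 to 2.77) and Pfkp 1.88-fold (1.61 to 2.20). Pgk1, Pgd, Pkm and Tpi1 were also lower, by 1.54-fold to 1.79-fold. The largest ratios among genes with at least 50 CPM were those of Mdh1 (0.989, 0.834 to 1.17), Fh1 (0.906, 0.785 to 1.05) and Cs (0.900, 0.702 to 1.16), all enzymes of the TCA cycle or its cytosolic partner.

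**Figure D4:**
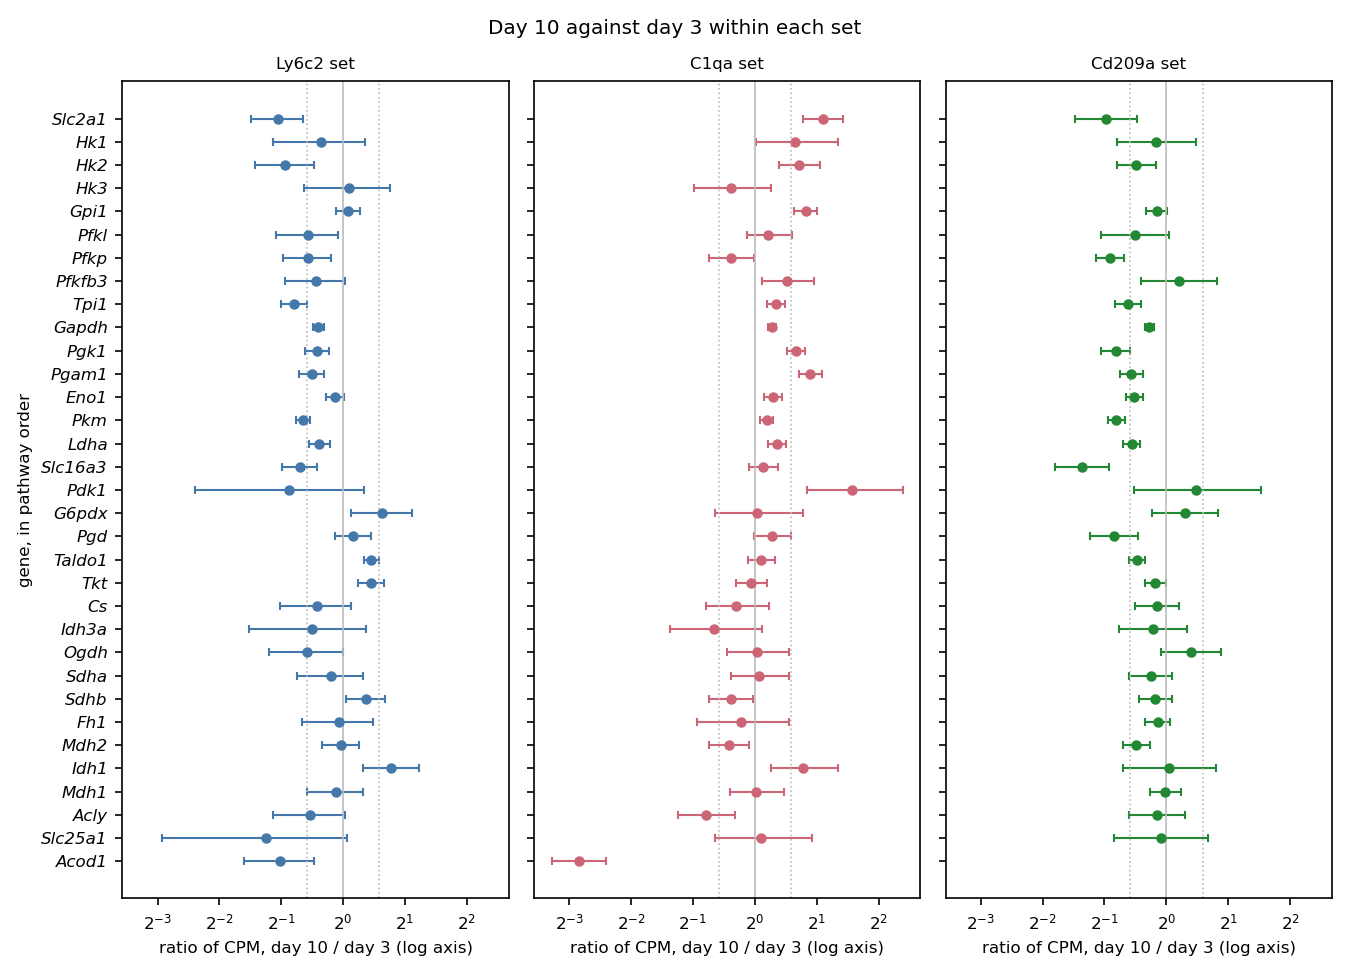
Ratio of CPM on day 10 to day 3 for each member (horizontal log axis) in the Ly6c2, C1qa and Cd209a sets, in pathway order; bars are exact 95% intervals for counting error, dotted lines mark 1.5-fold, and Hk3 and Acod1 are blank in the Cd209a set for want of UMIs. Slc2a1 lies at 2.14 in the C1qa set and at 0.482 and 0.511 in the other sets.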

How the data were processed

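The authors deposited, per the file headers, 1 table of raw UMI counts per library, which the submitters' processing notes tie to Cell Ranger 3.0.2 and mm10. The gene models counted were not given in the sources used here. Of the 31053 gene identifiers, 30934 were found in GENCODE vM21 (GRCm38), which supplied positions. Cells with at least 200 genes and under 10% mitochondrial UMIs were kept. No doublet caller was run; cells positive for more than 1 marker (70, 14 and 12 on days 3, 6 and 10) were left out of the sets. UMIs were summed per set and library and tested with edgeR 4.0.16 (R 4.3.3) on TMM-scaled sums, library as block, 4 residual degrees of freedom; the SE is the log2 fold change divided by the square root of F. The 3 set markers were left out of counts. DESeq2 1.42.0 was an alternative, as were other marker limits, cell filters, thinning to 5000 UMIs and leaving out libraries. The fit was tested on simulated data. Intervals cover counting error only, at 95%. The p-values measure how set differences vary between these 3 libraries, not between mice. Named genes were a fixed set plus, in each set comparison, the 6 called members with the largest fold change and, in each day comparison, the 3 largest and 3 smallest ratios among those with at least 50 CPM. Day comparisons with day 6 were given for the C1qa set. Members and lists were chosen with earlier results of these data known.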

Additional observations from a re-analysis of the deposited data

Results flagged for a closer look

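Between day 3 and day 10, 4 members moved by at least 1.5-fold in opposite directions in different sets. The share of all genes that did so was not computed, so the 4 are not read as a trait of these members. Of all genes, 20.7% were higher in the C1qa set, 18.7% lower in the Ly6c2 set and 10.2% lower in the Cd209a set. The difference between sets was not tested, since each day is 1 library. The ratio of day 10 to day 3 for Slc2a1 was 2.14 in the C1qa set, 0.482 in the Ly6c2 set and 0.511 in the Cd209a set. For Hk2 it was 1.65 in the C1qa set and 0.523 in the Ly6c2 set. For Pgk1 it was 1.59 in the C1qa set and 0.567 in the Cd209a set. For Pdk1 it was 2.97 in the C1qa set and 0.544 in the Ly6c2 set, where the day 10 sum held 6 UMIs.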

How the results depend on the processing

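Of 588 recomputed values of called members in the set comparisons, 527 kept their call, 61 fell short of the threshold and 0 changed direction. The number of members called higher in the C1qa set against the Ly6c2 set (1) was 2 without TMM factors, 4 with no filter on low counts, 0 with a marker limit of 1 or 3 UMIs and overlapping sets, 2 with a mitochondrial limit of 20% and 2 with no cell filter; leaving out 1 library gave 0 to 4. The number called lower (3) was 1 with cells thinned to 5000 UMIs, and 1 to 2 with 1 library left out. Members higher in the Cd209a set numbered 1 to 3 against the Ly6c2 set (3) with 1 library left out. Against the C1qa set (7) they numbered 4 without TMM factors and 4 to 5 with 1 library left out. The labels give no replicate numbers beyond 1 library per day; the library served as the block that pairs the sets, and without the replicate block 4 members were higher in the Cd209a set against the C1qa set. With a marker limit of 1 UMI and overlapping sets, the Idh3a ratio of day 10 to day 3 in the C1qa set was 1.11, the Hk3 share was 17.0% in the Ly6c2 set of day 10 and 4.78% in the Cd209a set of day 6, and the Pfkp share was 57.6% and 44.3% in the C1qa set of days 6 and 10. The cause was not tested. With DESeq2, adjusted p missed the threshold for G6pdx in the C1qa set against the Ly6c2 set (0.063), Pfkp in the Cd209a set against the Ly6c2 set (0.0782), and Cs (0.0812) and Idh3a (0.191) in the Cd209a set against the C1qa set. Without the block edgeR gave 0.0668 for G6pdx, 0.138, 0.119 and 0.214 for Pfkp, Gapdh and Eno1 against the Ly6c2 set, and 0.141, 0.0535, 0.124 and 0.0842 for Ldha, Taldo1, Cs and Idh3a against the C1qa set. The median log2 ratio of the members over 9 alternatives ran from 0.09 to 0.21 in the C1qa set for day 10 against day 3, from -0.18 to -0.03 for day 6 against day 3 and from -0.01 to 0.27 for day 10 against day 6, where its sign is thus not settled. It ran from -0.56 to -0.22 in the Ly6c2 set and from -0.48 to -0.24 in the Cd209a set for day 10 against day 3. In the C1qa set, day 10 against day 3, members (0.09) lay below all genes (0.13) with a marker limit of 3 UMIs and overlapping sets. They lay above all genes in the other alternatives. On day 10 against day 6 they lay above all genes in every alternative, as with -0.01 against -0.10 at a mitochondrial limit of 20%. In the remaining comparisons they lay below all genes in every alternative. Counts of members between days moved by over 1.5 times in 19 of 100. In the C1qa set, day 6 against day 3, 5 members were lower with TMM factors or no cell filter and 6 with a marker limit of 5 UMIs (3 as reported), and 4 were higher with each cell weighted equally (2). On day 10 against day 6, 2 were lower with equal weights (1). In the Ly6c2 set, day 10 against day 3, 4 were lower and 0 higher with the 1 UMI limit, 15 were lower with equal weights (8), and 1 was higher with TMM factors or overlapping sets (2). At a 2-fold limit, higher and lower members numbered 2 and 1 (C1qa, day 10 against day 3), 1 and 1 (day 6 against day 3), 3 and 0 (day 10 against day 6), 0 and 3 (Ly6c2) and, lower in the Cd209a set, 1. Leaving out the cell with most UMIs was chosen after seeing the data. The 19 cells of the Ly6c2 set of day 6 limit all its values.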
